A study of Mus musculus with 6 samples.

Results

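The cell cycle genes examined here were a set of 38 genes that dividing cells switch on to copy and separate their chromosomes. They were listed by symbol, and 36 of them had a row on the array that the platform annotation assigned to that symbol alone, among 21506 genes measured this way. Ccnb1 and Ccne2, of the mitotic and the G1/S cyclins, had no such row and were not analysed here. The 36 genes fell into 11 S-phase genes (6 helicase subunits, the replication clamp, 3 enzymes of nucleotide supply and 1 cyclin) and 25 mitotic genes.

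Dividing cells express these genes in 2 waves. At the G1/S boundary, E2F factors released from Rb proteins turn on genes of DNA replication, and later, in G2 and mitosis, a second complex (MuvB with B-Myb and FoxM1) turns on the kinases, motors and spindle proteins of chromosome segregation. Most cardiomyocytes of the adult ventricle have left the cycle, and the tissue also holds endothelial cells, fibroblasts, macrophages and blood cells, some of which can divide. A level in whole ventricle is a sum over these cells, so more cycling cells and more RNA per cell cannot be told apart.

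Total RNA of the left ventricle was measured on Mouse Gene 2.0 ST arrays from Affymetrix, with a single array for each of 3 sickle and 3 control mice, all male, with 10 to 14 weeks given as the age for the study's experiments. Sickle mice were homozygous for the engineered Hbb allele tm2(HBG1,HBB*)Tow, which carries the human gamma-globin and sickle beta-globin genes, and control mice for tm3(HBG1,HBB)Tow, whose human beta-globin does not sickle. Both groups carried the human alpha-globin allele Hba tm1(HBA)Tow on a mixed B6;129 background, so the controls are humanised mice and not wild type. The alleles are inherited through the germ line and are not confined to the heart. Values are log2 levels after RMA, the authors' background correction, normalisation and probe summary, and differences are sickle minus control on that scale.

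The array medians lay between 5.50 and 5.54. Sickle replicate 3 stood apart from the other 5 arrays, with a score of 43.3 on the first principal component (43.9% of the variance) against -15.1 to -2.31. Counts over all members are therefore given with and without it, as are medians over all members and over the S-phase and mitotic sets. A member's difference is also given without it where leaving it out moves the value by over 1.5 times or turns its sign. Counts and medians of smaller groups and of other lists are over all 6 arrays unless stated. The 10 cardiomyocyte genes, most of which atrium and ventricle share, had summed levels from 71628 to 72695 (linear scale) in control and from 66785 to 74397 in sickle. In control replicate 3 the atrial genes Sln and Myl7 had 8.08 and 7.75, against 3.10 to 3.36 and 4.31 to 4.78 elsewhere, which goes against a label of ventricle alone for that array, while Myl2, the ventricular light chain gene, was at 9.15 there and between 8.57 and 9.31 elsewhere. Myl4, also on the list of 4 atrial genes, was at 5.93 there and between 5.02 and 5.55 elsewhere. Nppa, the last of the list, was at 12.74 there. It was at 12.63 and 12.72 in the other controls and between 12.97 and 13.66 in sickle. Of the 4 atrial genes 2 were higher in sickle and 0 were called. Without control replicate 3, 0 members were called (0.0186% of all genes called higher), 15 lay above all controls (12.2% of all genes) and the median difference of the members was 0.33.

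Promoters of the S-phase and mitotic sets held different motifs, given here as a description. RefSeq promoters (build GRCm38.p6, 250 bases before to 50 after the first start listed) were matched for 31 of the 38 genes, 10 S-phase and 21 mitotic, and searched on both strands for the CHR element, bound by MuvB and spelled TTTGAA, the box bound by NF-Y and spelled CCAAT, and the E2F core, spelled TTGGCGC or else TTCGCGC or else TTCCCGC or else TTGCCGC. Matches of one motif or of different motifs may overlap. The CHR letters lay in 15 of 21 mitotic promoters (71.4%) and in 1 of 10 S-phase promoters (10.0%), against 18.1% of 27025 promoters of the same length. E2F letters lay in 6 of 10 S-phase promoters (60.0%) and 4 of 21 mitotic ones (19.0%), against 9.69% of all. CCAAT lay in 80.0% and 81.0%, against 37.9%. The 250 bases before the start are printed, as examples, for 3 mitotic genes and 2 S-phase helicase genes. The mitotic genes are Ect2, at chr3:27153879-27154128, Mki67, at chr7:135716380-135716629, and Cdk1, at chr10:69352913-69353162, all on the minus strand. The helicase genes are Mcm6, at chr1:128359706-128359955 on the minus strand, and Mcm5, at chr8:75109259-75109508 on the plus strand. Capitals mark the matches.
Ect2: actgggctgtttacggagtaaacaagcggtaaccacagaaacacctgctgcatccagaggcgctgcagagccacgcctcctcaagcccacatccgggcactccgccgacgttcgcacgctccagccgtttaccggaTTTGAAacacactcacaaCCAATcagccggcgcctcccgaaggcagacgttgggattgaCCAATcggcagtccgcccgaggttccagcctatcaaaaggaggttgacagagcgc
Mki67: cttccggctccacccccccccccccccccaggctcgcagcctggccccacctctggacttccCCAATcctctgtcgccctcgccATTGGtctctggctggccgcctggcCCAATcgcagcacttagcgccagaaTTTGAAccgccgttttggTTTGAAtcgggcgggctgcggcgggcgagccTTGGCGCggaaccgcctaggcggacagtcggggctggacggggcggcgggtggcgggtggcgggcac
Cdk1: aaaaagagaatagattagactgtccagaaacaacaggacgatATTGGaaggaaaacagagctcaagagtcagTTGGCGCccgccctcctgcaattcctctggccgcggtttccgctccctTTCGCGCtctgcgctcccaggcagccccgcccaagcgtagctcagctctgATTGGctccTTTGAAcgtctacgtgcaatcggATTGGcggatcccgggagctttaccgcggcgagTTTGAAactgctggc
Mcm6: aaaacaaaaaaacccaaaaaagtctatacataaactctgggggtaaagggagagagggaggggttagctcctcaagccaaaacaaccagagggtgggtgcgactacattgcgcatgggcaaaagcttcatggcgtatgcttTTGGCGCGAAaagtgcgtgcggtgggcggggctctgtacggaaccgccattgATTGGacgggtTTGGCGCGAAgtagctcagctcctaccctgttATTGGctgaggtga
Mcm5: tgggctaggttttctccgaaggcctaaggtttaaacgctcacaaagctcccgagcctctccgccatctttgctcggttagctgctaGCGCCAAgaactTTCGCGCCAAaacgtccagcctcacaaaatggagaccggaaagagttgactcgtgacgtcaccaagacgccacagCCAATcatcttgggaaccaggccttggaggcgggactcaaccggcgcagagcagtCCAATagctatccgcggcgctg
In these stretches Ect2 held 1 CHR and 2 CCAAT matches, Mki67 2 CHR, 3 CCAAT and 1 E2F match, and Cdk1 2, 3 and 2. Mcm6 held 4 E2F and 2 CCAAT matches and Mcm5 3 and 2, with 0 CHR matches in either. Nusap1, with the second smallest p of the set, held 0 matches of any of these in its whole window. The printed genes do not stand for their whole sets. Over the whole window, Ect2, Mki67 and Cdk1 are among the 4 mitotic genes with E2F letters. Mcm2 held 1 CHR and 0 E2F matches there, and Pcna, Tyms and Ccne1 held 0 E2F matches. A match is a stretch of letters and was not tested for binding in these mice.

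Sickle ventricle had higher mean levels of most cell cycle genes, but no single gene passed the test. Of the 36 genes, 33 had a higher mean in sickle, against 48.4% of all genes, and the median difference was 0.39 (1.31-fold), against -0.01 over all genes. By limma with Benjamini-Hochberg adjustment over all 21506 genes, 0 members were called higher and 0 lower, where 0.167% of all genes were called higher and 0.0139% lower. The adjusted p of the members lay between 0.176 and 0.987. An unadjusted p under 0.05 with a higher level was reached by 14 members, where 4.30% of all genes reached it, and by 0 members with a lower level (4.38% of all genes). For 13 members the 3 sickle arrays all lay above the 3 control arrays, where 7.61% of all genes did, and 0 members lay below all controls (8.36% of all genes).

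These counts moved with single arrays. The 14 members at an unadjusted p under 0.05 became 21 without sickle replicate 1 (5.05% of all genes were higher at that p), 8 without replicate 2 (4.89%) and 9 without replicate 3 (4.83%). They became 9, 9 and 5 without control replicates 1, 2 and 3 (3.11%, 3.18% and 3.07% of all genes). A test without shared variance gave 5 (3.78% of all genes) and called 0 of the 21506 genes. Without sickle replicate 3, 30 of 36 differences were above 0, where 50.2% of all genes were, and the median difference was 0.24. In that fit 0 members were called higher (0.0837% of all genes) and 0 lower (0.0139%), 9 had an unadjusted p under 0.05 and were higher, 0 were lower at that p (4.37%), and 13 lay above and 0 below all controls in both remaining arrays (13.5% and 13.4% of all genes). Without sickle replicate 1, 24 lay above all controls (13.3% of all genes) and 1 member, Mki67, was called higher (0.153% of all genes), with a difference of 1.44 and an adjusted p of 0.0327.

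**Figure D1:**
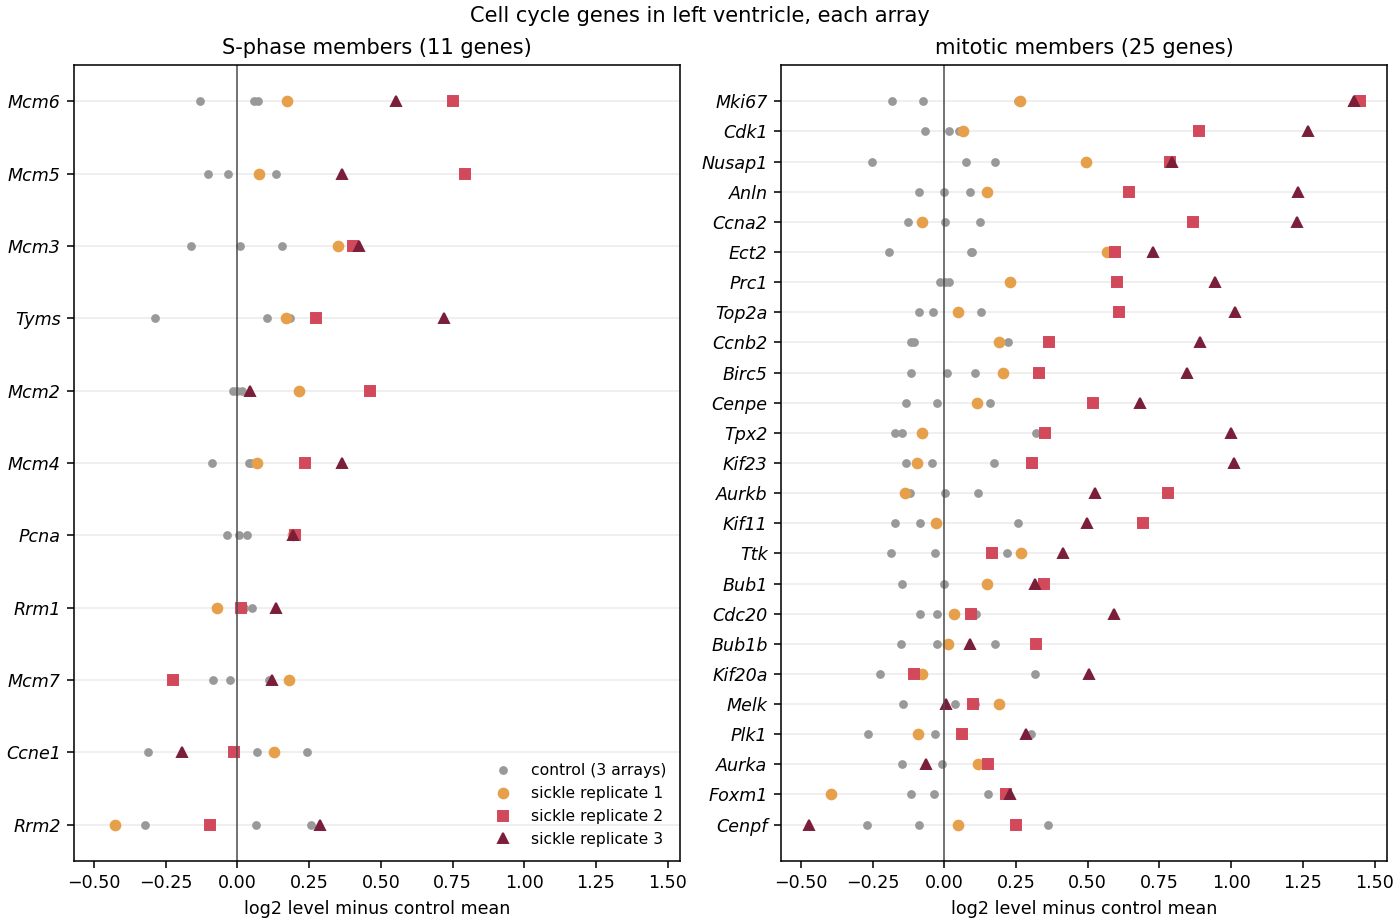
Each row is 1 cell cycle gene, in S-phase (left) and mitotic (right) sets ordered by difference; points are the log2 level in each array minus the mean of the 3 control arrays, grey for control and coloured by replicate for sickle. In the mitotic panel sickle replicate 3 is the highest of the 6 arrays for 16 of 25 genes, while sickle replicate 1 lies above the highest control for 10. These counts were not taken over all genes, and sickle replicate 3 stood apart over the whole array. The median over all genes of the plotted value was -0.03 in sickle replicate 3.

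The helicase subunits Mcm2 to Mcm7, which form the ring that unwinds DNA at replication forks, were higher by a median of 0.32, with 6 of 6 means above control. Mcm3 had 5.93, 6.08 and 5.76 in control replicates 1, 2 and 3 and 6.27, 6.33 and 6.35 in sickle. The 3 sickle values were close together and above every control, with a difference of 0.39 ± 0.11 (SE; limma adjusted p = 0.412). Mcm6 had 5.67, 5.66 and 5.47 in control and 5.78, 6.35 and 6.16 in sickle. It too was without overlap, but sickle replicate 1 was only just above the controls, and the difference was 0.49 ± 0.16 (adjusted p = 0.475).

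Mcm5 had 5.36, 5.29 and 5.53 in control and 5.47, 6.19 and 5.76 in sickle. Here sickle replicate 1 lay inside the control range, and the difference was 0.41 ± 0.18 (adjusted p = 0.580). Mcm2 had 5.68, 5.69 and 5.71 in control, a narrow range, and 5.91, 6.16 and 5.74 in sickle. Sickle replicate 3 was the lowest of the sickle arrays for Mcm2, and the difference of 0.24 ± 0.12 (adjusted p = 0.612) was 0.34 without it. Mcm4 differed by 0.22 ± 0.11, also without overlap. Mcm7 differed by 0.02 ± 0.13, a value that turned to -0.0038 after a second quantile normalisation and to -0.02 without sickle replicate 3.

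Pcna, the sliding clamp that holds DNA polymerase on its template, had 7.81, 7.74 and 7.78 in control and 7.97, 7.97 and 7.97 in sickle. The groups did not overlap and the sickle values were alike, and the difference was small, 0.20 ± 0.08 (1.15-fold; adjusted p = 0.574). Of the genes of nucleotide supply, Tyms, thymidylate synthase, differed by 0.39 ± 0.18, with its highest value, 7.05, in sickle replicate 3, and by 0.22 without that array. The ribonucleotide reductase genes Rrm1 and Rrm2 differed by 0.03 ± 0.10 and -0.08 ± 0.21 (95% intervals -0.20 to 0.25 and -0.57 to 0.41), and by -0.03 and -0.26 without sickle replicate 3. Ccne1, the cyclin E1 that starts S phase with Cdk2, differed by -0.03 ± 0.16 (-0.40 to 0.35), and by 0.06 without sickle replicate 3. Tyms, Rrm1, Rrm2 and Ccne1 all overlapped between the groups.

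Of the genes of mitotic entry, Cdk1, the kinase that drives cells into mitosis, had 4.53, 4.56 and 4.44 in control and 4.58, 5.40 and 5.78 in sickle. Sickle replicate 1 was at the level of the controls and the other two were well above them, with a difference of 0.74 ± 0.27 (adjusted p = 0.534), or 0.48 without sickle replicate 3. Its partner Ccna2, cyclin A2, had 5.57, 5.46 and 5.32 in control and 5.37, 6.32 and 6.68 in sickle, with the sickle arrays in the same order as for Cdk1. With sickle replicate 1 inside the control range, the difference was 0.67 ± 0.30 (adjusted p = 0.585), or 0.39 without replicate 3. Ccnb2, cyclin B2, differed by 0.48 ± 0.19 (0.28 without replicate 3), and the factor gene Foxm1 by 0.02 ± 0.18 (95% interval -0.40 to 0.44), which was -0.0022 after median centring of the arrays and -0.09 without sickle replicate 3.

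Genes of the mitotic kinases and of the spindle checkpoint had smaller differences, with a median of 0.19 over 8 genes. Bub1, a checkpoint kinase at the kinetochore, was the 1 of these with the groups apart, though only just: it had 3.55, 3.40 and 3.25 in control and 3.55, 3.75 and 3.71 in sickle (difference 0.27 ± 0.11, adjusted p = 0.567). Aurkb, the kinase of the chromosomal passenger complex, differed by 0.39 ± 0.22, Ttk by 0.28 ± 0.13, Cdc20, an activator of the anaphase-promoting complex, by 0.24 ± 0.16 (0.06 without sickle replicate 3), and the checkpoint gene Bub1b by 0.14 ± 0.13. Melk (0.10 ± 0.11), Plk1 (0.08 ± 0.17) and the spindle pole kinase Aurka (0.07 ± 0.11) were closer to 0, and without sickle replicate 3 Plk1 was at -0.02 and Aurka at 0.13.

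Among genes of chromosomes and centromeres, Mki67 had the largest difference of the 36 genes. It encodes the Ki-67 antigen, the usual stain for cycling cells. Its levels were 6.21, 6.54 and 6.10 in control and 6.55, 7.73 and 7.71 in sickle. Sickle replicate 1 was level with the highest control and replicates 2 and 3 were over 2-fold above the control mean of 6.29 ± 0.23 (SD, n = 3), which gave a difference of 1.05 ± 0.31 (2.07-fold; adjusted p = 0.446), or 0.86 without replicate 3.

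Top2a, the topoisomerase that untangles sister chromatids, had 4.41, 4.20 and 4.25 in control and 4.33, 4.89 and 5.30 in sickle, which is a difference of 0.56 ± 0.22 (adjusted p = 0.564), or 0.33 with replicate 3 left out. Sickle replicate 1 lay between the controls. Birc5, survivin of the passenger complex, had 3.07, 3.29 and 3.19 in control and 3.39, 3.52 and 4.03 in sickle, all above control (0.46 ± 0.17, adjusted p = 0.537; 0.27 without replicate 3). Cenpe, a kinetochore motor, had 4.73, 4.55 and 4.44 in control and 4.69, 5.09 and 5.26 in sickle (0.44 ± 0.16, adjusted p = 0.534), with replicate 1 inside the control range. Cenpf was the 1 mitotic gene with a lower mean (-0.06 ± 0.22), and was 0.15 without sickle replicate 3.

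Spindle and cytokinesis genes were higher by a median of 0.51 (0.36 without sickle replicate 3), with 8 of 8 means above control, and held the smallest p of the set. Ect2, the exchange factor that activates RhoA at the cleavage furrow, had 5.31, 5.31 and 5.03 in control and 5.78, 5.81 and 5.94 in sickle. The 3 sickle arrays stood together above the controls, with a difference of 0.63 ± 0.11 (1.55-fold; adjusted p = 0.176), or 0.58 ± 0.12 without replicate 3. Nusap1, which bundles spindle microtubules, had 4.53, 4.10 and 4.43 in control and 4.85, 5.14 and 5.15 in sickle. All sickle values were again higher (0.69 ± 0.14, 1.61-fold, adjusted p = 0.270; 0.64 ± 0.16 without replicate 3).

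Prc1, which crosslinks the midzone microtubules, had 4.90, 4.92 and 4.89 in control and 5.13, 5.50 and 5.85 in sickle (0.59 ± 0.17, adjusted p = 0.438). Anln, the furrow scaffold anillin, had 4.71, 4.54 and 4.62 in control and 4.77, 5.27 and 5.86 in sickle (0.68 ± 0.24, adjusted p = 0.527; 0.40 without replicate 3). In both the sickle arrays were above every control and replicate 1 was the nearest to them. The kinesin genes Kif11 and Kif23 and the spindle assembly factor Tpx2 differed by 0.39 ± 0.20, 0.41 ± 0.26 and 0.43 ± 0.27, and overlapped with control. Without replicate 3 these were 0.33, 0.11 and 0.14. Kif20a, another mitotic kinesin gene, differed by 0.11 ± 0.20, and by -0.09 without replicate 3.

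S-phase and mitotic genes were then set side by side, as a description without a test. The median difference was 0.22 for the S-phase genes (9 of 11 higher) and 0.41 for the mitotic genes (24 of 25 higher). The sickle arrays differed in which set stood higher. The S-phase medians relative to the control mean were 0.17, 0.23 and 0.29 in sickle replicates 1, 2 and 3, all above the control range of -0.03 to 0.06. The mitotic medians were 0.07, 0.35 and 0.68, also all above the control range of -0.11 to 0.02, with sickle replicate 1 near it. The mitotic median minus the S-phase median was -0.11, 0.12 and 0.39 in the 3 sickle arrays and between -0.09 and 0.01 in control.

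The gap between the sets, 0.18 over the 6 arrays, rested on few arrays. It was 0.07 without sickle replicate 3, 0.10 without control replicate 3 and 0.35 without sickle replicate 1, against a pooled spread between arrays of 0.18 (SD). Without sickle replicate 3 the mitotic median was 0.27 and the S-phase median was 0.20. The spread between sickle mice was also wider in mitotic genes, with a median SD of 0.36 in sickle and 0.15 in control, than in S-phase genes, with 0.21 and 0.11. Of the 25 mitotic genes, 21 had a smaller difference without sickle replicate 3, as did 7 of the 11 S-phase genes.

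**Figure D2:**
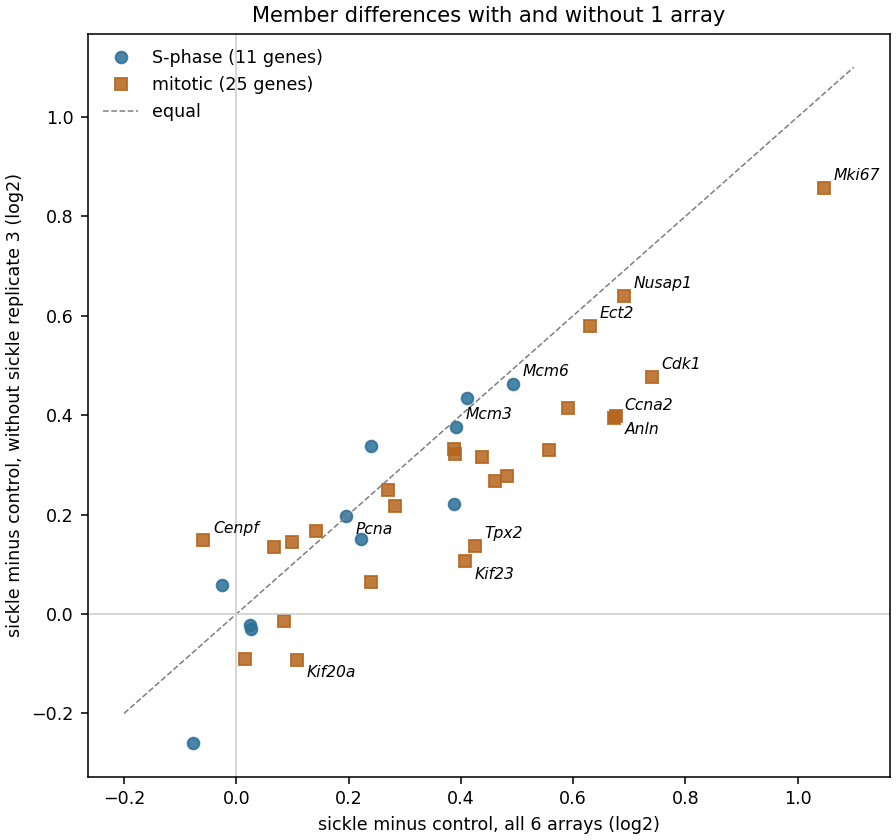
Difference of each cell cycle gene (sickle minus control, log2) over all 6 arrays on the x axis and without sickle replicate 3 on the y axis, with a dashed line of equal values. Most mitotic genes lie below the line, with Kif23 and Tpx2 at 0.11 and 0.14 on the y axis, while Ect2, Nusap1, Mcm3 and Mcm6 lie close to it.

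Many of these genes were dim. Olfactory receptor genes, not known to be used in ventricle, gave a rough yardstick, since probes differ in brightness: 95% of 1081 such genes had means up to 4.94. The means of all 11 S-phase genes with a row, in control as over both groups, were above that level. Of the 25 mitotic genes, 14 had a mean over both groups above it, but for 4 of these, Anln, Prc1, Aurkb and Cdc20, the control mean was not, so that they passed only through the sickle arrays. The other 11 mitotic genes, among them Cdk1, Top2a, Nusap1, Birc5 and Cenpe, were not above it.

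Other genes of the cycle were taken from lists beside the 38. Over all genes 48.4% were higher, 0.167% were called higher and 0.0139% lower. At an unadjusted p under 0.05, 4.30% of all genes were higher and 4.38% lower. Of 46 other mitotic genes with a row, 37 were higher, with a median of 0.17 and 0 called in either direction (10 higher and 0 lower at an unadjusted p under 0.05). Without sickle replicate 3, 32 were higher (50.2% of all genes), with a median of 0.09, and 6 were higher at that p (4.83%). Pttg1, securin, had 5.52, 5.71 and 5.62 in control and 6.02, 6.13 and 6.08 in sickle, apart in every array (0.46 ± 0.10, adjusted p = 0.266). Ube2c, the ubiquitin-conjugating enzyme of the anaphase-promoting complex, differed by 0.66 ± 0.16 (adjusted p = 0.363). The list's medians in sickle replicates 1, 2 and 3 were 0.05, 0.19 and 0.35, in the same order as in the 25 mitotic genes. Of 31 other replication genes, 18 were higher, with a median of 0.07 and 0 called (1 higher and 0 lower at an unadjusted p under 0.05). The licensing factor Cdt1 (0.32 ± 0.11) and the clamp loader subunit Rfc5 (0.21 ± 0.10) had the smallest p of that list. The median of these genes was thus nearer to that of all genes than the median of the 11 S-phase genes.

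Among genes of the E2F, Rb and MuvB factors, E2f2, an activating E2F factor, had a higher level in sickle. It had 5.28, 5.32 and 5.68 in control and 6.68, 7.14 and 7.35 in sickle, a difference of 1.63 ± 0.19 (3.09-fold; adjusted p = 0.0287). It was the 1 of 16 E2F, Rb and MuvB genes called, with 0 called lower, and the list's median was 0.06. Of the 16, 10 were higher and 6 lower. In all sickle arrays 4 lay above every control and 3 below (7.61% and 8.36% of all genes). The part of E2f2 in the levels of the members was not tested. Its call was lost without sickle replicate 2 or 3 and without any 1 of the controls (adjusted p from 0.0726 to 0.212), while the difference stayed between 1.48 and 1.82 with any 1 array left out. Calls over all genes also went from 39 to 13, 5 and 4 without control replicates 1, 2 and 3 and to 21 without sickle replicate 2 or 3. Among 6 genes of G1 cyclins and kinases, with a median of 0.31 and 0 called (3 higher and 0 lower at an unadjusted p under 0.05), the cyclin D genes Ccnd1 and Ccnd2 differed by 0.59 ± 0.17 and 0.48 ± 0.13 (adjusted p = 0.424 and 0.399). For both, sickle replicate 3 had the lowest of the sickle values (9.14 and 9.99), the reverse of the mitotic genes. Of 6 inhibitor genes of cyclin-dependent kinases, with a median of -0.06 and 0 called (1 higher and 1 lower at an unadjusted p under 0.05), Cdkn1c (p57) had 6.82, 6.98 and 6.94 in control and 6.20, 6.39 and 6.09 in sickle, a difference of -0.69 ± 0.11 that did not pass (adjusted p = 0.116), and Cdkn1b (p27) differed by 0.27 ± 0.11.

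**Figure D3:**
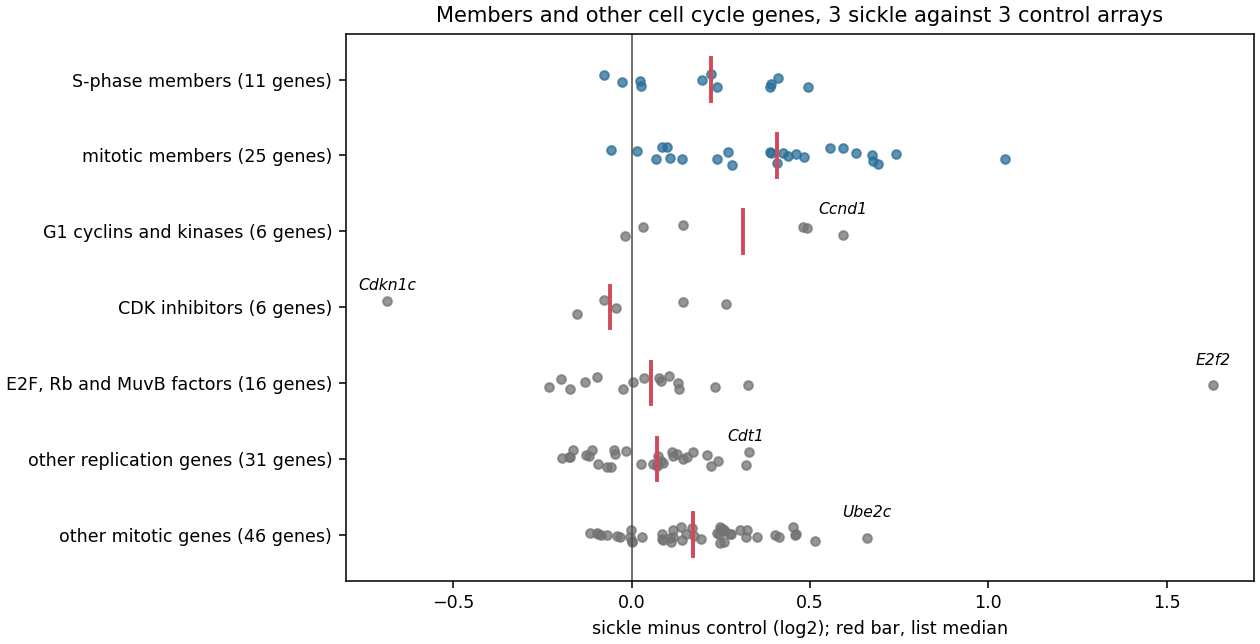
Sickle minus control (log2) for each gene of the S-phase and mitotic sets and of 5 other cell cycle lists, with a red bar at each list's median. The medians are 0.22 and 0.41 for the members and 0.07 and 0.17 for the other replication and mitotic genes, and E2f2 at 1.63 stands apart.

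Markers of other cells moved with these genes in part of the arrays. For the counts below, 48.4% of all genes were higher and 0.167% were called higher. Late red-cell genes differed in all sickle arrays: 10 of 11 were higher and 7 were called (Slc4a1, Epb42, Trim10, Bpgm, Isg20, Mkrn1 and Slc25a37). Without sickle replicate 3, 4 of the 11 were called, and Epb42, Mkrn1 and Slc25a37 were not (limma adjusted p = 0.135, 0.0791 and 0.0684). The list's medians were 1.53, 2.08 and 1.71 in sickle replicates 1, 2 and 3. Its summed levels were 2368 to 2636 in control and 5419 to 7860 in sickle. Slc4a1, the band 3 gene, had a difference of 3.31 ± 0.30 (adjusted p = 0.0109). The nucleated precursor list had 7 of 9 higher, 1 called (Rhag, 1.57 ± 0.21, adjusted p = 0.0484) and summed levels of 605 to 940 and 588 to 1116. Rhag was not called without sickle replicate 3 (limma adjusted p = 0.135). Tfrc, the list's brightest gene, weighs most in the summed levels, with 8.49 to 9.42 in control and 8.11 to 9.60 in sickle. Gata1 differed by 0.24 ± 0.11 and Klf1, a defining gene not above the olfactory receptor level, by 0.18 ± 0.17. The control means of Gata1 and Rhag, 4.86 and 4.30, were not above that level either, so they passed it only through the sickle arrays. Of 7 B-cell genes 6 were higher and 1, Cd79a, was called (1.12 ± 0.15, adjusted p = 0.0484), with summed levels of 218 to 227 and 284 to 356. The call of Cd79a was lost without sickle replicate 3 (limma adjusted p = 0.0600). The B-cell medians were 0.72, 0.56 and 0.43 in sickle replicates 1, 2 and 3, the reverse order of the mitotic genes. Of 8 T and NK cell genes 8 were higher and 0 called (229 to 254 in control and 299 to 312 in sickle).

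Macrophage and fibroblast genes stood out in sickle replicate 3, where mitotic genes were also highest. The 10 macrophage genes had medians of 0.05, 0.17 and 1.33 in sickle replicates 1, 2 and 3 and summed levels of 2256 to 2595 in control and 2523 to 5957 in sickle. The 9 fibroblast genes had medians of 0.03, 0.13 and 1.52 and summed levels of 7794 to 8885 and 8561 to 23982. All members of both lists were above the olfactory receptor level and had higher means in sickle. Of either list 0 were called, and 2 of each were higher at an unadjusted p under 0.05, where 4.30% of all genes were. In sickle replicate 2, with a mitotic median of 0.35 and Mki67 at 7.73, these lists were at 0.17 and 0.13. Endothelial genes (6 of 8 higher, summed levels 7157 to 7850 and 7781 to 8197), smooth muscle and pericyte genes (6 of 6, 7266 to 7557 and 7583 to 9397) and neutrophil genes (6 of 8, 126 to 148 and 134 to 145, with 8 of 8 not above the olfactory receptor level) had 0 called. The part of any of these cells in the cell cycle levels was not tested.

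**Figure D4:**
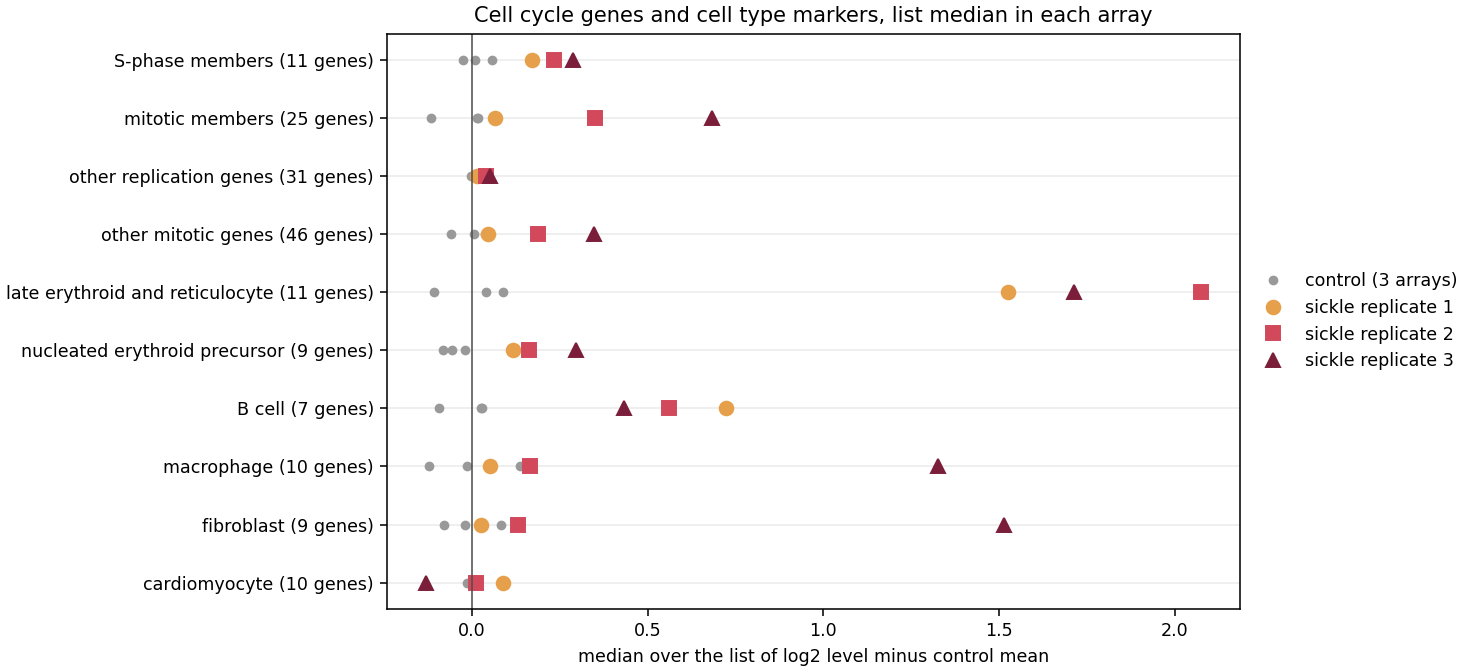
Median over each gene list of the log2 level minus the control mean, for each of the 6 arrays, grey for control and coloured by replicate for sickle. Mitotic genes are at 0.07, 0.35 and 0.68 in sickle replicates 1, 2 and 3, late red-cell genes are above 1.5 in all 3, and macrophage and fibroblast genes are above 1 in replicate 3 alone.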

How the data were processed

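The series compares left ventricle of 3 sickle and 3 control mice, grouped by sample title, 1 array each. The authors deposited log2 values after RMA, per the submitters' processing notes, which give no version; the scale follows from the range of the values, and the sources used here give neither scan dates nor a genome build. Of 25293 rows, 22030 had 1 gene symbol in the platform annotation, 685 several and 2578 none. The brightest row by mean over the 6 arrays stood for a gene, which left 21506 genes; no member had more than 1 such row.

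Limma 3.58.1 in R 4.3.3 (lmFit, eBayes, group as the only term, two-sided; 4 degrees of freedom from the residuals and 3.61 from the prior) was run over all genes, with Benjamini-Hochberg adjustment at 0.05. SEs and 95% intervals are moderated. An unadjusted p under 0.05 controls no false calls. Medians over genes are descriptions. Ccna2, active in S and G2, was counted as mitotic. Members and lists were chosen with earlier results of these data known. Array values are given for the 8 mitotic and 4 S-phase genes with the smallest p, for Mki67, Top2a, Cdk1, Pcna and Mcm2, and for Ccna2 and Bub1, which were added after their values were seen. From the other cell cycle lists, differences are given for genes called or otherwise the 2 with the smallest p, with array values for E2f2, Pttg1 and Cdkn1c, and marker lists are given by counts, called genes and defining genes. The fit was tested on simulated data with 3 arrays a group. It called 34.3% of 1.5-fold, 67.2% of 2-fold and 98.5% of 4-fold changes, with 8 false calls. A member without a call can therefore still differ. The alternatives tried were a variance trend on mean level, leaving out genes not above the olfactory receptor level, 2 other normalisations, array weights, a replicate block, each array left out, mean rows and no shared variance. Arrays give no read depth, so their number limits the precision. Figures were drawn with matplotlib 3.10.9.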

Additional observations from a re-analysis of the deposited data

How the results depend on the processing

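Of 36 members, 27 kept the direction of their difference under every alternative run on them, 17 under 14 and 10, not above the olfactory receptor level, under 13. The other 9 had differences near 0. Array weights turned Rrm1 to -0.016, Ccne1 to 0.014, Foxm1 to -0.084, Plk1 to -0.0042, Cenpf to 0.052 and Kif20a to -0.00014, a second quantile normalisation turned Mcm7 to -0.0038 and median centring turned Foxm1 to -0.0022. With 1 array left out the ranges were -0.052 to 0.15 for Mcm7, -0.030 to 0.074 for Rrm1, -0.26 to 0.097 for Rrm2, -0.18 to 0.096 for Ccne1, -0.090 to 0.22 for Foxm1, -0.049 to 0.24 for Plk1, -0.0052 to 0.14 for Aurka, -0.21 to 0.15 for Cenpf and -0.092 to 0.26 for Kif20a. The count of members called higher was 0 to 1 with 1 array left out and 0 otherwise, and that called lower was 0 throughout. The count higher at an unadjusted p under 0.05 was 5 to 21 with 1 array left out (3.07% to 5.05% of all genes). It was 5 without shared variance (3.78%) and 8 with the filter on dim genes (5.62% of the genes left). That filter left 25 members, 4 of them only through the sickle arrays. Members above all controls numbered 13 to 24 with 1 array left out (11.5% to 13.5% of all genes). They numbered 9 of 36 with median centring (6.1% of all genes) and 9 of 25 with the filter on dim genes (9.63% of the genes left). The median difference was 0.24 to 0.46 with 1 array left out and 0.26 with array weights. Without sickle replicate 3 it was 0.24 and moved by more than the spread between arrays (SD 0.15). The medians of the S-phase set (0.19 to 0.25), the mitotic set (0.27 to 0.60) and their gap (0.07 to 0.35) moved by less than their spread. Leaving out 1 array tends to move such a value by only part of that spread, so staying within it says little on stability. With array weights, in which sickle replicate 3 had a weight of 0.358, the gap was 0.11. Leaving Ccna2, Mki67, Foxm1 and Melk out of the mitotic set left its median at 0.41. Between arrays of one replicate number, deviations from the group mean had correlations of 0.11, -0.05 and 0.05 for numbers 1, 2 and 3. Between unlike numbers these were -0.12 to 0.07. The labels name no pairing, and whether arrays of one number share a batch was not tested. With the replicate number as a block, 0 members were called and 13 were higher at an unadjusted p under 0.05 (4.38% of all genes). The calls over all genes went from 39 to 12. E2f2, called over 6 arrays, was called in 8 of the 14 alternatives; without shared variance (adjusted p = 0.376) 0 of all genes were called.

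With 3 arrays a group, differences of the members' size had SEs of 0.08 to 0.31. The 11 mitotic members not above the olfactory receptor level lie within the range of 95% of olfactory receptor genes.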
